A study of Mus musculus with 24 samples.

Results

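The genes described here are 10 mouse chemokines, Cx3cl1, Ccl2, Ccl3, Ccl5, Ccl7, Cxcl1, Cxcl10, Cxcl12, Cxcl14 and Cxcl16, followed across 7 tumour cell lines. They were selected on their measured signals over all 7 lines in earlier results of these arrays, listed by symbol, and each was found through the RefSeq transcript that its probe was designed for. They had 13 of the 56488 probes used and were 10 of the 45547 gene names on the array. Because their values were known, their levels and the differences between lines are given as a description. Their p-values are not printed, and calls among them are only counted.

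Each of 24 samples of total RNA was labelled with cyanine 3 and hybridised to 1 Agilent whole-mouse array. The 5 melanoma lines derive from B16F1, a mouse melanoma line, and carry GFP. B16F1-GFP-M (M, 3 arrays) is the parental line. B16F1-GFP-D (D, 4 arrays) was recovered after a dormancy of 1 year from mice vaccinated with irradiated tumour cells overexpressing the cytokine GM-CSF. B16F1-GFP-DB#1, DB#2 and DB#3 (4, 3 and 3 arrays) are second-generation lines from a brain site. M0 (4 arrays) and J365 (3 arrays) are labelled as myeloid cells, and neither name is matched to a particular leukemia line in the sources used here. All lines had been amplified in culture before RNA was taken, the melanoma lines in DMEM with fetal bovine serum, and no agent was added. Whether a line was 1 clone, and whether the arrays of a line came from separate cultures, is not stated, so the SDs and p-values below measure the spread between these samples, which may be technical. In RNA from a whole culture, fewer cells that make a transcript and less of it per cell cannot be told apart.

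Chemokines are small secreted proteins that direct the migration of leukocytes through G protein-coupled receptors. Their names give the spacing of the first cysteines (CC, CXC or CX3C), with L for a ligand and R for a receptor. Tumour cells themselves can make them and so attract or exclude monocytes, T cells and natural killer cells. Cx3cl1 (fractalkine) and Cxcl16 are unusual in being made as membrane-anchored proteins on a mucin-like stalk, from which the proteases Adam10 and Adam17 release a soluble form. In the brain, Cx3cl1 is made by neurons and its receptor Cx3cr1 is carried by microglia. Cxcl10 and Ccl5 are made in response to interferons and inflammatory signals and attract activated T cells.

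Levels are given as the normalized log2 signal, the log2 of a probe's intensity minus that of the 75th percentile of its array, so that 0 is the level of that percentile. A gene is said to be read on an array where the scanner software marked its probe as well above background. Below that mark a value has no order. Levels are compared between lines for 1 gene at a time, never between genes, because probes differ in brightness. Between 43.6% and 53.8% of probes were read on 23 arrays and 89.9% on D replicate 3, which is therefore named beside each result that rests on it. The mean of 8 melanocyte markers was 6.15 on D replicate 3, 6.68 to 7.28 on the other 16 melanoma arrays and -4.80 to -4.43 on the 7 of myeloid cells. In the same order, that of 8 blood markers was -3.13 (6 of 8 read), -5.10 to -4.20 (1 to 4 read) and 2.24 to 3.08 (8 read). Samples of all lines were spread over each of 3 slides of 8 arrays.

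To show what lies in front of the genes that the results turn on, the 250 bases before the annotated start of Cx3cl1, Cxcl10, Cxcl1 and Ccl3 are printed here, 5′ to 3′ on the strand of the gene, from RefSeq on GRCm38.p6. Windows were found for 6 of the 10 members. The capitals mark matches to the consensus of the interferon-stimulated response element, to that of NF-kappaB or to the TATA box (TATAAA), searched on both strands. Cx3cl1 is chr8:94771930-94772179 on the plus strand, Cxcl10 is chr5:92348890-92349139 on the minus strand, Cxcl1 is chr5:90890995-90891244 on the plus strand and Ccl3 is chr11:83649379-83649628 on the minus strand.
Cx3cl1: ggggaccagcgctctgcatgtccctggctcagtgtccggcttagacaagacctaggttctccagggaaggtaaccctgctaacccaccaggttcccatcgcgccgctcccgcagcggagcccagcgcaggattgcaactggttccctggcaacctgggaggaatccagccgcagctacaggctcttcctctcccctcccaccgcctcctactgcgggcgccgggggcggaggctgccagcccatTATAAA
Cxcl10: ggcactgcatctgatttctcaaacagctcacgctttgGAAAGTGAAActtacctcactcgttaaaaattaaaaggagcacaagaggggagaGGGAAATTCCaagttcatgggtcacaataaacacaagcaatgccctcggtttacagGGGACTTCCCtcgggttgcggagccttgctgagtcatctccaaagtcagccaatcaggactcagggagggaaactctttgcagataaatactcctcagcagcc
Cxcl1: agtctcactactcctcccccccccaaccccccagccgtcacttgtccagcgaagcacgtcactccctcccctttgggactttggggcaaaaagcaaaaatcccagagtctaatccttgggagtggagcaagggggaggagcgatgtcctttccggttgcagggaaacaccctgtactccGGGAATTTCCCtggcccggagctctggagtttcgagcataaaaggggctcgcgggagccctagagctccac
Ccl3: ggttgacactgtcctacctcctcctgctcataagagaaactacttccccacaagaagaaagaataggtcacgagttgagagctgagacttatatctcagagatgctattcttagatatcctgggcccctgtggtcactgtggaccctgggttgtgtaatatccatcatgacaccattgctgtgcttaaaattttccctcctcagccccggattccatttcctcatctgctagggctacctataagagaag
The Cx3cl1 window holds a match to the letters of the TATA box at 6 to 1 bases before the start. The Cxcl10 window holds a match to the interferon-stimulated response element at 213 to 204 bases before the start, on the reverse strand. It also holds NF-kappaB matches at 159 to 150 and at 103 to 94. The capitals in the Cxcl1 window are a pair of overlapping NF-kappaB matches, at 71 to 62 and, on the reverse strand, at 70 to 61. No match was found in these letters of Ccl3. Of 32851 such windows of all genes, 2.98% held the interferon-stimulated response element, 3.9% the NF-kappaB consensus and 12.4% the TATA box. These matches are a description of the sequence.

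Cx3cl1 was read on every array of M, D, DB#1 and DB#3 and on no array of DB#2. Its normalized log2 signal was -2.32, -2.68 and -2.36 in M replicates 1 to 3 and -1.47, -1.16, -0.60 and -1.19 in D replicates 1 to 4. It was -1.76, -2.16, -1.74 and -2.12 in DB#1 replicates 1 to 4 and -1.57, -1.81 and -1.56 in DB#3 replicates 3 to 5. The DB#2 arrays gave -5.15, -6.11 and -5.52, none of them above background. All 4 D arrays thus lay above all M arrays, and all DB#2 arrays lay below every array of the other melanoma lines. In the myeloid lines it was read on 1 of 7 arrays, J365 replicate 4 (-3.62).

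**Figure D1:**
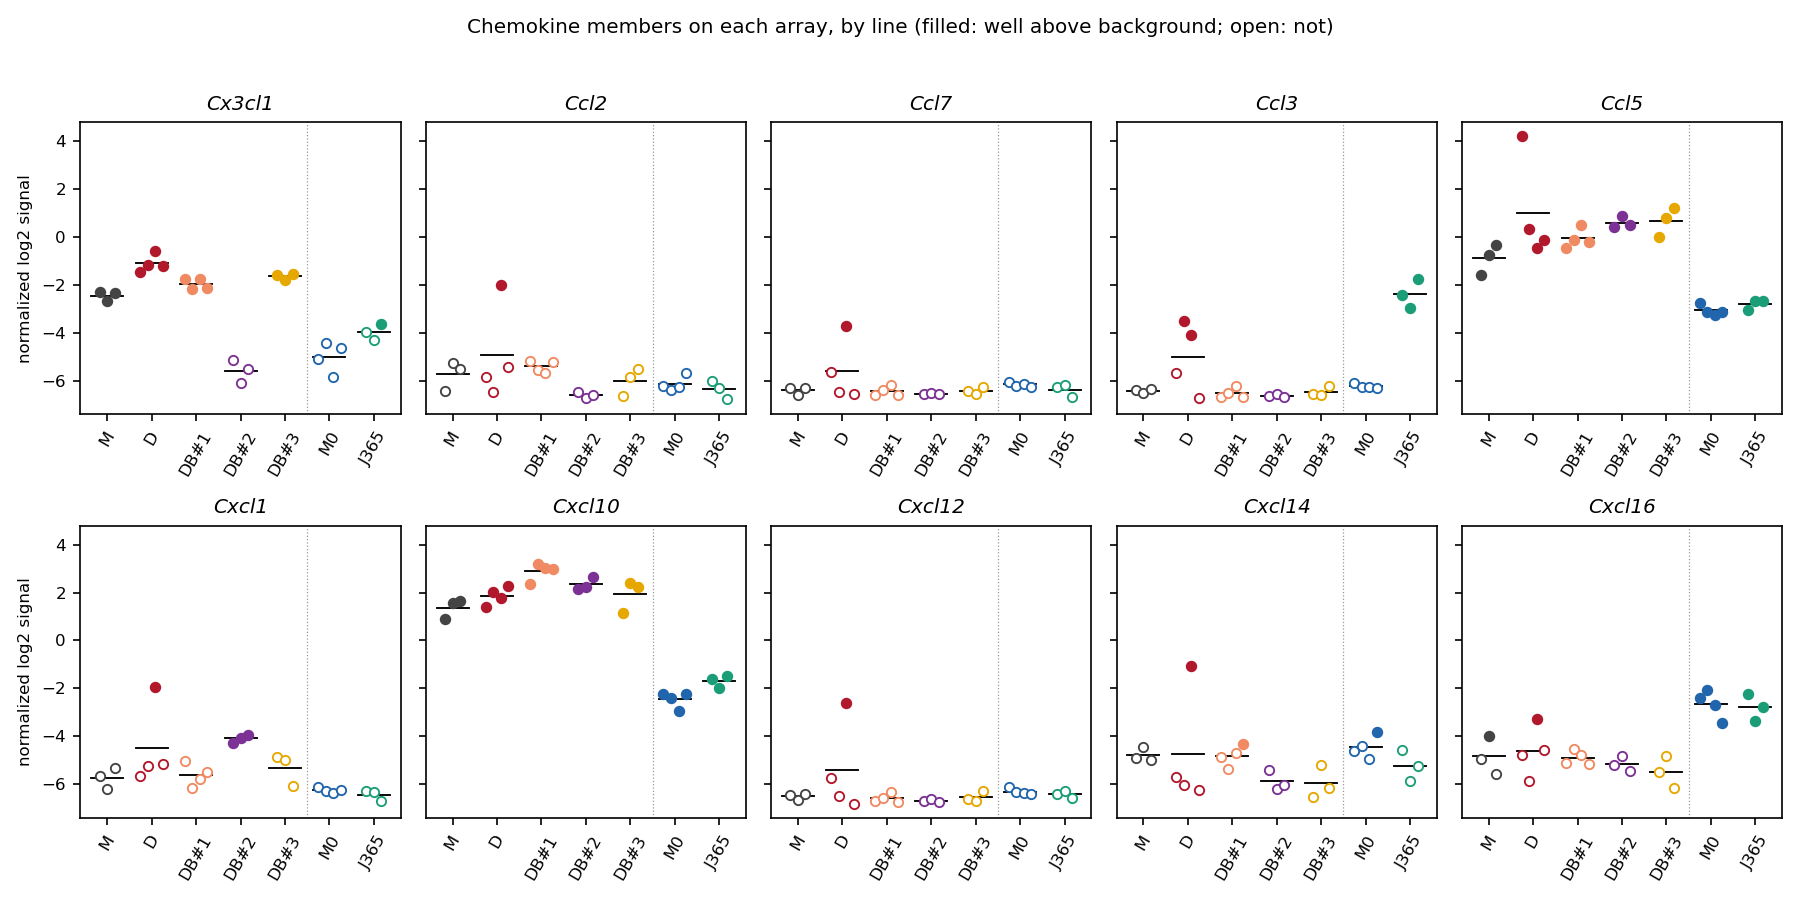
Normalized log2 signal of the 10 chemokines (vertical axis) on each of the 24 arrays, by line (horizontal axis; melanoma lines left of the dotted line, myeloid lines right of it). Points are arrays, filled where the probe was well above background and open where it was not, and bars are line means over all arrays. Cx3cl1 was filled on all arrays of 4 melanoma lines and open on the 3 of DB#2, Ccl3 was filled on the 3 J365 arrays, and Cxcl10 and Ccl5 were filled on all 24.

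The order of the line means for Cx3cl1 was D (-1.10 ± 0.37, SD, n = 4), DB#3 (-1.65 ± 0.14, SD, n = 3), DB#1 (-1.94 ± 0.23, SD, n = 4) and M (-2.45 ± 0.20, SD, n = 3). DB#3 and DB#1, neighbours in that order, overlapped, with a difference of 0.30 ± 0.14 (SE). D and DB#3 did not overlap (difference 0.54, SE 0.20), and neither did DB#1 and M (0.51, SE 0.16). Since DB#2 gave only a bound, the mean of Cx3cl1 in D was at least 10.2-fold that of DB#2, in DB#3 at least 7.03-fold, in DB#1 at least 5.72-fold and in M at least 4.02-fold. As processed here, each bound sets the mean of the bright line against the lowest signal that was read on the arrays of the dim line. The corresponding bounds over M0 were 7.92-fold for D, 5.44-fold for DB#3, 4.43-fold for DB#1 and 3.11-fold for M.

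The difference of Cx3cl1 between D and M was 1.35 ± 0.28 (SE from limma, n = 4 and 3). Within the slides it was 1.05, 2.08 and 1.12, and the highest of these lay on the slide of D replicate 3. Without that array the difference was 1.18. DB#2 minus M was -3.14 ± 0.30 (SE) as measured, and -3.75, -2.47 and -3.20 within the slides. With normexp background correction, which raises dim signals, D minus M was 0.77, and DB#2 minus M was also smaller in size, at -1.0. That is less than the bound of M over DB#2, 2.01 on the log2 scale, so the bounds hold only for the processing used here.

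The 5 genes with a symbol whose pattern was most like that of Cx3cl1 were Ak5, 1700030C10Rik, Adcy2, Rtn4rl1 and Aspg, among 14312 genes compared. Likeness was measured by Pearson correlation of the normalized log2 signal over the 24 arrays, which share lines and slides. Cx3cl1 was read on 15 of them, and values of arrays that did not read a gene, which have no order, were included. The coefficients thus mix which arrays read a gene with its level where it was read. The coefficients were 0.928 for Ak5, an adenylate kinase, 0.923 for 1700030C10Rik, 0.913 for Adcy2, an adenylate cyclase, 0.903 for Rtn4rl1, a homologue of the Nogo receptor, and 0.892 for Aspg, an asparaginase. Over the 17 melanoma arrays alone they were 0.924, 0.957, 0.920, 0.923 and 0.857. None of the 5 was read on a DB#2 array or on a myeloid array. In M, where Cx3cl1 was read on all 3 arrays, 1700030C10Rik and Adcy2 were also read on all 3, Aspg on 1, and Ak5 and Rtn4rl1 on none.

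**Figure D2:**
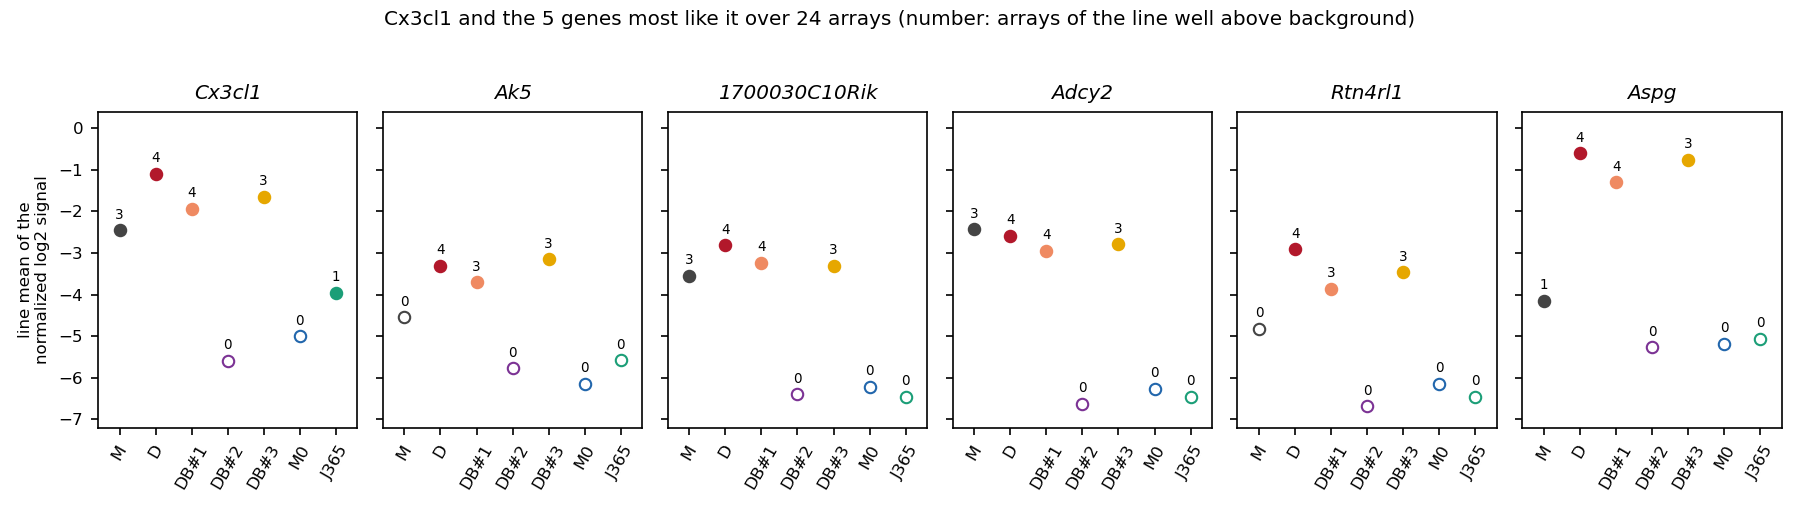
Line means of the normalized log2 signal (vertical axis) of Cx3cl1 and of the 5 genes most correlated with it, for the 7 lines (horizontal axis). Points are filled where at least 1 array of the line was well above background, and the number over each point counts such arrays. All 6 genes have 0 such arrays in DB#2 and in M0, and 4 in D.

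The receptor of Cx3cl1, Cx3cr1, was faint everywhere. It was read on 8 of 24 arrays by at least 1 of its probes, 6 of them melanoma and 2 myeloid, and on no line by all of its arrays, so it was tested in no comparison. The proteases that shed Cx3cl1 and Cxcl16 were read on all 24 arrays. Adam10 gave 3.48, 3.61 and 3.58 in M replicates 1 to 3 and 2.83, 2.96 and 2.87 in DB#2, where all arrays lay below those of M. The difference of -0.67 ± 0.17 (SE) passed limma's test at an adjusted p of 0.0246 (Benjamini-Hochberg over 20951 genes), and its second probe gave -1.03. The call of Adam10 was lost when any 1 array of M or DB#2 was left out (adjusted p 0.0560 to 0.105 by limma), and with normexp background correction, without scaling and without the filter on dim probes. Adam17 differed from M by -0.39 ± 0.16 (SE) in DB#2, which did not pass (adjusted p 0.292, limma). In D, DB#1 and DB#3 neither protease was called, with differences from M of -0.28 to -0.11.

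Cxcl10, the interferon-induced ligand of Cxcr3, was read on all 24 arrays. It was 0.91, 1.56 and 1.64 in M replicates 1 to 3 and 1.42, 2.03, 1.76 and 2.27 in D replicates 1 to 4. It was 2.35, 3.18, 3.01 and 3.00 in DB#1, 2.14, 2.22 and 2.66 in DB#2 and 1.15, 2.41 and 2.23 in DB#3. All arrays of DB#1 and of DB#2 lay above all arrays of M, while D and DB#3 overlapped with M. DB#1 also lay above all arrays of D. The difference from M was 1.52 ± 0.29 (SE) in DB#1, 0.97 ± 0.31 in DB#2, 0.56 ± 0.31 in DB#3 and 0.50 ± 0.29 in D. Within the slides DB#1 minus M was 1.37, 0.79 and 2.18.

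In the myeloid lines Cxcl10 was -2.25, -2.38, -2.95 and -2.23 in M0 replicates 1 to 4 and -1.61, -1.98 and -1.46 in J365 replicates 1, 3 and 4. The J365 arrays lay above those of M0, by 0.77 ± 0.30 (SE), and all 7 lay below every melanoma array. M exceeded M0 by 3.83 ± 0.30 (SE), and by 3.89, 4.16 and 3.29 within the slides. Its receptor Cxcr3 was read on all 17 melanoma arrays and on 1 of 7 myeloid arrays, so that ligand and receptor were both read in each melanoma line. Cxcr3 was 0.87, -0.48 and -0.20 in M and -0.97, -0.98, -1.19 and -1.12 in DB#1. The DB#1 arrays lay below those of M by 1.13 on the log2 scale, which did not pass the test (SE 0.51, adjusted p 0.343, limma).

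Ccl5, which attracts T cells and monocytes, was also read on all 24 arrays. It was -1.61, -0.76 and -0.32 in M, -0.46, -0.11, 0.52 and -0.20 in DB#1, 0.40, 0.87 and 0.52 in DB#2 and -0.02, 0.80 and 1.21 in DB#3. In D it was 4.22 on replicate 1 and 0.33, -0.46 and -0.11 on replicates 2 to 4. DB#2 and DB#3 lay above all M arrays, DB#1 and D overlapped with M, and D replicate 1 lay above every other array of the series. The differences from M were 1.49 ± 0.75 (SE) in DB#2, 1.56 ± 0.75 in DB#3 and 0.84 ± 0.71 in DB#1. D minus M was 1.89 ± 0.70 (SE) with all arrays and 0.82 without D replicate 1. Within the slides D minus M was 2.59, 0.31 and 1.5, and the highest came from the slide of D replicate 1.

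In the myeloid lines Ccl5 was lower than on any melanoma array. It was -2.75, -3.12, -3.24 and -3.11 in M0 replicates 1 to 4 and -3.07, -2.69 and -2.67 in J365 replicates 1, 3 and 4, and these lines overlapped. M exceeded M0 by 2.16 ± 0.71 (SE), and by 1.17 with normexp background correction. Ccr1, a receptor of Ccl5, was read on no array.

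D replicate 1 had the lowest share of probes read, 43.6%. Without it 4.33% of 21571 genes were called in D against M, in place of 2.97% of 20145 (limma). Few genes stood far above the other D arrays on D replicate 1. Of 18202 genes read on all D arrays, 13 exceeded all other D arrays there by at least 3 on the log2 scale, and 10 of these had a symbol. Ccl5 ranked second among those 10, with a gap of 3.89 to the next D array. The other leading genes were Phyhd1, Lims2, Grb14, S100a6 and Gsta3. This measure leaves out downward gaps, smaller shifts and genes that D replicate 3 alone read. By it 16 genes stood apart on D replicate 3 and none (0 genes) on replicates 2 and 4. Their part in the difference between D and M was not tested beyond leaving out the array.

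Cxcl1, a neutrophil attractant that acts through Cxcr2, was read on the 3 DB#2 arrays (-4.27, -4.06 and -3.94) and on D replicate 3 (-1.95), and on no other array. The DB#2 arrays lay above all arrays of the other lines except D replicate 3. The DB#2 signals were themselves close to the limit of reading, so that the bound over M was only 1.15-fold, and the measured difference of 1.64 ± 0.61 (SE) fell to 0.12 with normexp background correction. Cxcr2 was read on all 7 myeloid arrays and, among melanoma arrays, on D replicate 3 alone.

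Ccl3, a ligand of Ccr1 that macrophages make, was read on all J365 arrays and on no M0 array. It was -2.42, -2.97 and -1.74 in J365 replicates 1, 3 and 4 and -6.33 to -6.09 in M0, below background. The mean of Ccl3 in J365 was at least 3.28-fold that of M0, and the measured difference was 3.87 ± 0.48 (SE). Within the slides the difference was 3.11, 4.56 and 3.87. With normexp background correction it was 0.96, less than the bound, which is 1.71 on the log2 scale. Among melanoma arrays Ccl3 was read on D replicates 2 (-3.49) and 3 (-4.09) alone.

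Ccl4, a macrophage chemokine whose gene lies next to Ccl3 on chromosome 11, is no member. It could be tested only because all J365 arrays read it, so its p-value is not given. It was -0.08, -0.03 and -0.94 in J365 replicates 1, 3 and 4. In M0 it was -2.48, -2.86 and -3.25 on replicates 1 to 3 and not above background on replicate 4 (-4.33). The 3 J365 arrays lay above all 4 of M0. The difference was 2.88 ± 0.35 (SE), and the other probe gave 3.14. Within the slides it was 2.45, 2.85 and 2.78. No melanoma array read Ccl4, so its change could not be compared between the melanoma and myeloid lines.

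Cxcl16, the membrane-anchored ligand of Cxcr6, was read on all 7 myeloid arrays. It was -2.41, -2.07, -2.68 and -3.47 in M0 replicates 1 to 4 and -2.22, -3.38 and -2.79 in J365 replicates 1, 3 and 4, so the myeloid lines overlapped (difference -0.14, SE 0.49). On the melanoma arrays the same probe was read on M replicate 2 (-3.98) and D replicate 3 (-3.28) alone. The mean in M0 was at least 3.22-fold that of DB#1, 3.49-fold that of DB#2 and 3.1-fold that of DB#3. M was lower than M0 by 2.17 on the log2 scale (SE 0.49), with within-slide values of -3.14, -0.91 and -2.86. A second probe of Cxcl16 disagreed: it was read on no myeloid array, and on D replicates 3 and 4. Cxcr6 was read on 4 arrays, 3 of them myeloid.

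Ccl2 and Ccl7, monocyte attractants that act through Ccr2, and Cxcl12, the ligand of Cxcr4 and Ackr3, were read on D replicate 3 and on none of the other 23 arrays. There Ccl2 was -2.02, Ccl7 -3.73 and Cxcl12 -2.60. Cxcl14, a chemokine of epithelia, was -1.05 on D replicate 3, and was read besides on DB#1 replicate 4 (-4.31) and M0 replicate 4 (-3.82). Its other probe gave -4.34 on D replicate 3 and was read on no other array. In none of the lines was any of these 4 chemokines read on all arrays, so none could be tested. All 10 members were read on D replicate 3, as were 18 of 27 other ligands, 9 of which no other array read. The mean of 6 fibroblast markers on that array was -3.03, with 5 of 6 read, against -5.05 to -3.72 with 1 to 3 read on the other melanoma arrays. The mean of 3 T cell markers was -0.92 there, with 3 of 3 read, against -3.36 to -2.30 with 2 read. On the myeloid arrays that mean was -0.97 to 1.07, with 2 to 3 read. On D replicate 3 the macrophage markers (-1.97, 4 of 4 read) and endothelium markers (-3.91, 2 of 4 read) were higher too. The other melanoma arrays gave -2.99 to -2.23 and -5.91 to -5.25 for these. Of all probes, 89.9% were read on D replicate 3. The part of these markers in the reading of chemokines on that array was not tested.

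The members that passed limma's test over all genes are counted here. Since the choice of members used these contrasts, nothing is read from the counts. In D against M 3 of the 10 could be tested and 1, Cx3cl1, was called, where 2.97% of 20145 genes were called. In DB#1 against M 1 of 3, Cxcl10, was called (3.69% of all genes tested), in DB#2 against M 1 of 4, Cx3cl1 (3.44%), and in DB#3 against M 0 of 3 (2.76%). At an unadjusted p under 0.05 by limma there were 2 in D, 1 in DB#1, 3 in DB#2 and 1 in DB#3. The call of Cx3cl1 in D was lost without M replicate 2 and in a fit of the M and D arrays alone. In J365 against M0 1 of 4, Ccl3, was called (1.47%). Between the cell types, M against M0, all 4 that could be tested were called, Cx3cl1, Ccl5 and Cxcl10 higher and Cxcl16 lower in M, where 58.5% of all genes tested were called. The call of Ccl5 in M against M0 was lost without M replicate 3 and with normexp background correction. The members that were not tested in a comparison were read on all arrays of neither line. The 4 comparisons with M share the M arrays.

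**Figure D3:**
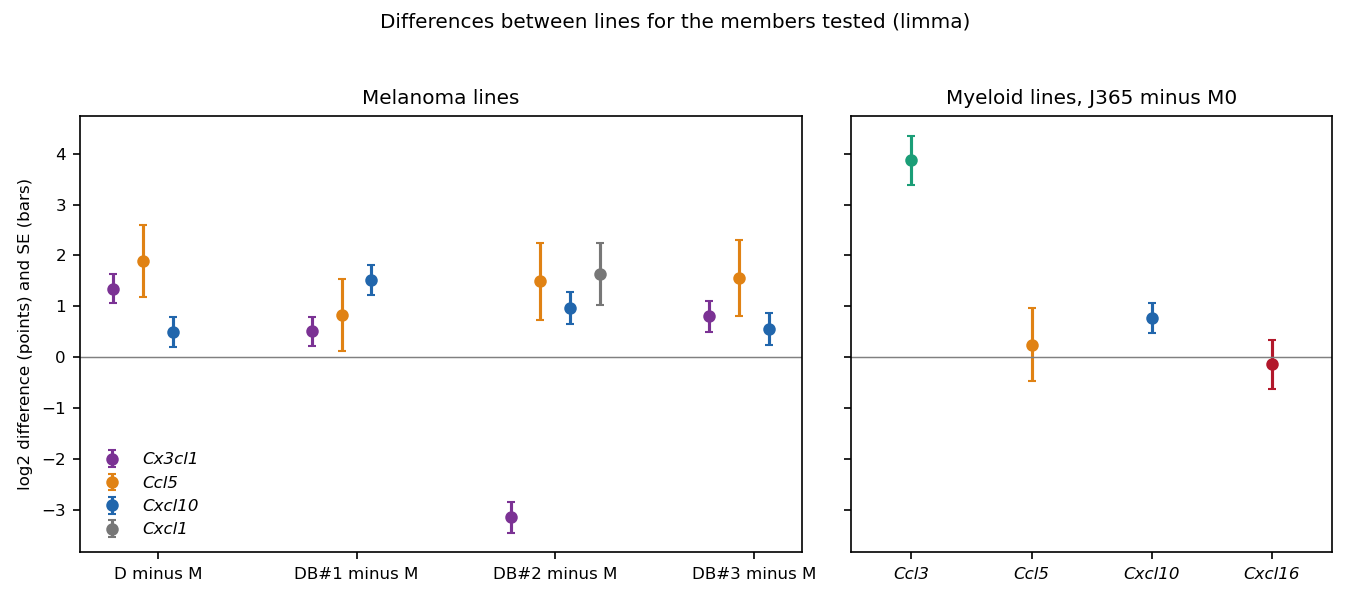
Log2 differences between lines (vertical axis) from limma for the members that could be tested, with bars of 1 SE on either side. The left panel shows the 4 melanoma comparisons with M and the right panel J365 minus M0. Cx3cl1 lay at -3.14 in DB#2 and between 0.51 and 1.35 in the other lines, and Ccl3 lay at 3.87 in J365.

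The rest of the chemokine system was taken as whole families: 27 of 31 other ligands were on the array, with 19 signalling and 5 atypical receptors. Between M and its derived lines few of these could be tested and none was called: 0 of 5 in D (median difference 0.08, against -0.01 for all genes), 0 of 5 in DB#1 (0.10, against 0.04), 0 of 5 in DB#2 (-0.12, against 0.02) and 0 of 5 in DB#3 (0.09, against 0.03) by limma. At an unadjusted p under 0.05 there were 0, 1, 0 and 0, the 1 being Cxcr3 in DB#1. The 5 were Ccl25, Ccl27a, Ccr8, Cxcr3 and Ackr3, each read on all 17 melanoma arrays. Ccr2, the receptor of Ccl2 and Ccl7, was read on 4 melanoma arrays, of which D replicate 3 gave -2.29 and DB#3 replicate 3 gave -1.86. No M array read Ccr2. It met the filter in DB#3 against M, and was called, only when DB#3 replicate 4, which did not read it, was left out. Nothing is read from that call.

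Between J365 and M0 Ccl4 was the 1 of 14 other ligands and receptors that was called. With quantile normalization 5 were called, where the share of all genes called was 2.61% in place of 1.47%, and with normexp background correction 4 were called (2.12% of all genes). Ccl6 and Pf4, read on all 7 myeloid arrays, were higher by 1.12 and 1.20 on the log2 scale, each at an unadjusted p under 0.05 (limma). Ccl24, read on 6 of 7, was lower by 2.04. Ccl4 and Ccl24 were tested only because all arrays of 1 line read them. Nothing is therefore read from these counts, and no p-value of Ccl4 or Ccl24 is given. The receptors read on all myeloid arrays, Ccr2, Ccr4, Ccr7, Ccr8, Cxcr2, Cxcr4 and Ccrl2, differed between J365 and M0 by -0.70 to 0.40, and none of them was called.

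Of 16 other ligands and receptors tested in M against M0, 4 were called higher in M and 11 lower (27.7% and 30.8% of all genes tested). Since 14 of the 16 were tested only because all arrays of 1 of these lines read them, nothing is read from these counts. For the same reason no p-value of those 14 is given. The 2 read on all arrays of both lines were Ccl25, a ligand of Ccr9, and Ccr8. Ccl25 was higher in M by 0.41 ± 0.12 (SE, adjusted p 0.00645, limma), a call that was lost without M replicate 3, with the mean of the readable probes and in a fit of the M and M0 arrays alone, and Ccr8 was not called (difference -0.36, SE 0.77, adjusted p 0.722, limma). Higher in M were Ackr3, a scavenging receptor for Cxcl12 (at least 17-fold), and Ccl27a, a skin chemokine (at least 29.2-fold). Ccl27a has a near-identical copy, Ccl27b, so its signal cannot be assigned to 1 gene with certainty. Cxcr3 was higher by 5.02 ± 0.51 (SE) as measured and was read on 1 M0 array. Named for the size of their measured difference were 3 genes lower in M, none of them read on an M array. They were Ccrl2, an atypical receptor (at least 48.1-fold), Cxcr4 (at least 48.1-fold) and Ccr2 (at least 55.6-fold). These bounds give them no order.

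The receptors of Cxcl1, of Ccl2 and Ccl7 and of Cxcl12 (Cxcr2, Ccr2 and Cxcr4) were read on all 7 myeloid arrays, where none of those 4 ligands was read. Cxcr2 was at least 31.5-fold lower in M than in M0. On the melanoma arrays Cxcr4 and Cxcr2 were read on D replicate 3 alone, at -2.81 and -1.54, while Ccr2 was read on 4 arrays of D and DB#3. Ackr3 was read on all 17 melanoma arrays, between -1.29 and 0.92, and on no myeloid array.

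**Figure D4:**
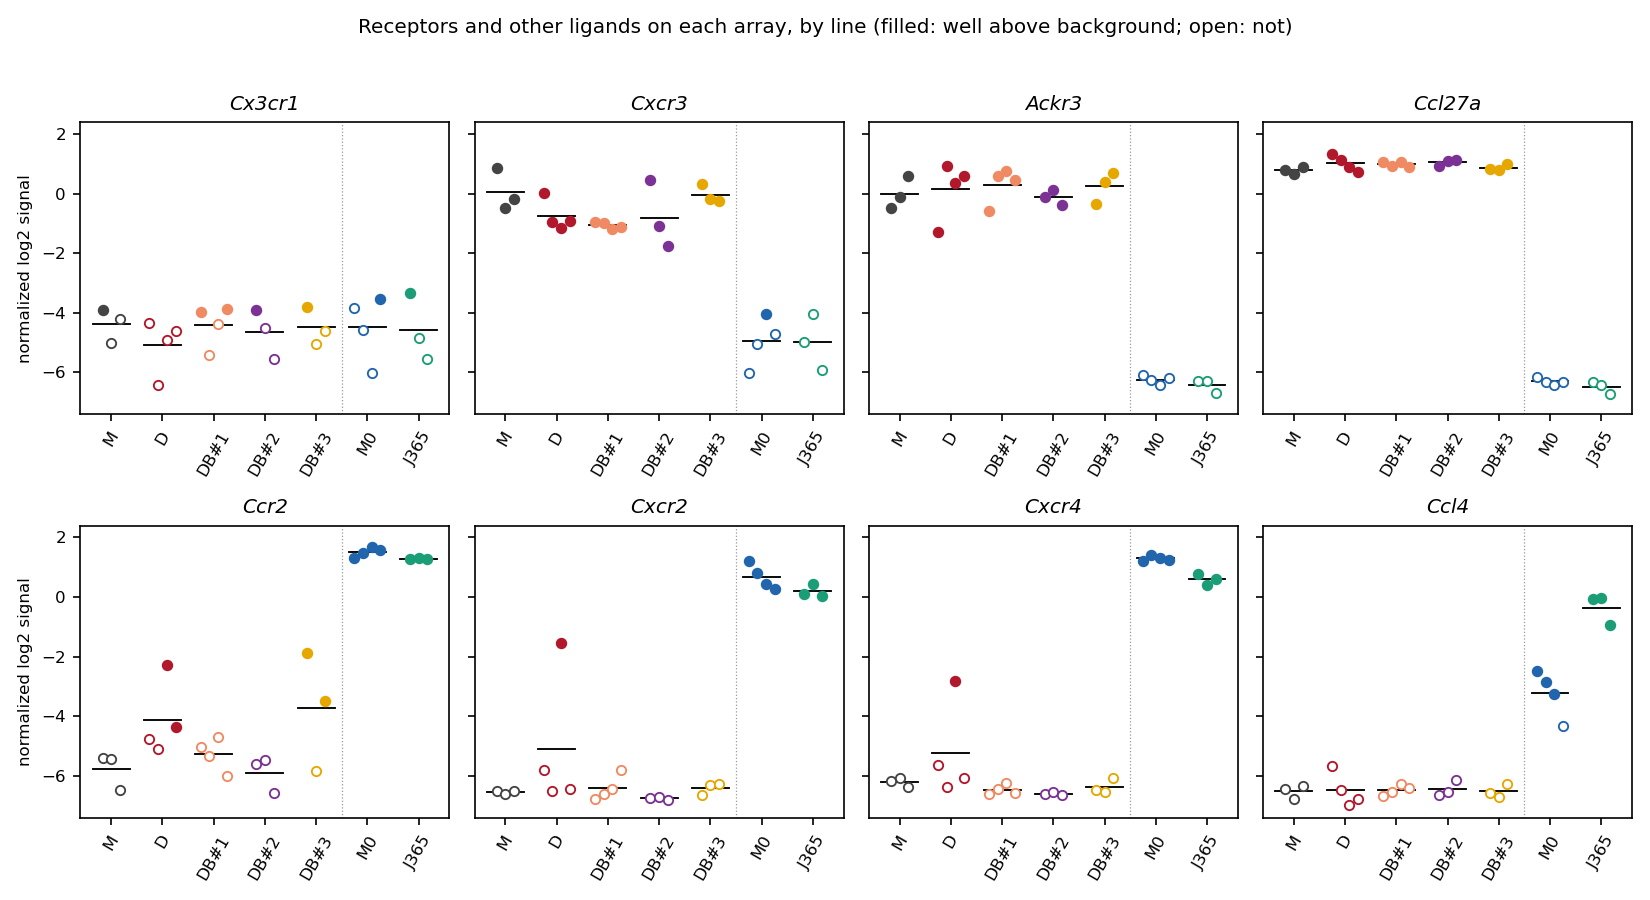
Normalized log2 signal (vertical axis) of receptors of the members and of the ligands Ccl27a and Ccl4 on each of the 24 arrays, by line (horizontal axis). Points are arrays, filled where well above background and open where not, and bars are line means. Cxcr3, Ackr3 and Ccl27a were filled on all 17 melanoma arrays, Ccr2, Cxcr2 and Cxcr4 on all 7 myeloid arrays, and Ccl4 was higher on the 3 J365 arrays than on the 4 of M0.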

How the data were processed

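RNA of 7 mouse cell lines was hybridised to 24 single-colour Agilent arrays. The authors scanned them with Agilent Feature Extraction 10.7.3.1, and the deposited intensity of each spot, gProcessedSignal, was already corrected for background, with a surrogate for low signals, and not scaled between arrays. The series table that was also deposited by the authors repeated that intensity (1511424 of 1511424 values equal, tolerance 1e-05 of the value).

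The spots of a probe were averaged without flagged outliers (117 of 56605 probes dropped, 0 saturated spots). The log2 intensity minus that of the array's 75th percentile was used. Of 35886 probes with a RefSeq-type accession, 32994 matched a symbol of GRCm38.p6, and the array itself refers to mm9. The brightest probe on average stood for a gene. Arrays limit the precision by their number, 3 or 4 a line. No pair of arrays held identical values (0 pairs).

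Lines were compared with limma 3.58.1 in R 4.3.3 (lmFit and eBayes, 24 arrays, 1 coefficient for each line, with 17 degrees of freedom left). A gene was tested if read on all arrays of at least 1 of the lines compared, and called at a Benjamini-Hochberg adjusted p under 0.05. The method was tested on simulated data. No test for the arrays is named in the study's methods. For a line without a reading, the bound used on each of its arrays the dimmest signal that was still read, or the probe's own signal where that was higher. A brighter signal can still be marked as not read, so the bounds hold only for this processing.

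The members, the lists and the named genes were chosen with earlier results of these data known. The genes named are the members, their receptors, at most the 3 largest rises and the 3 largest falls among called ligands, receptors and proteases of a comparison, and the 5 genes most like Cx3cl1. Other genes named were chosen after their values were seen, and 1 gene that the rule names is not reported here.

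The alternatives were quantile normalization, normexp with an offset of 50 on the median signals, no scaling, no filter, slide or replicate number as a block, only the arrays of the lines compared, the mean of the readable probes, and leaving out each replicate. Arrays of the same number deviated together in every pair only in DB#1 against M, with correlations over 15768 genes of 0.65, 0.57 and 0.91 for replicates 1 to 3. The numbers come from the sample titles.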

Additional observations from a re-analysis of the deposited data

Results flagged for a closer look

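Within lines of 4 arrays, 3 of 30 sets of member levels had a highest array whose gap to the next passed the limit of Dixon's test, which chance passes in about 1 of 20 sets. The members were chosen on these same levels, so nothing is read from that count. Ccl5 was 4.22 on D replicate 1, with all 4 D arrays read. Cxcl1 was -1.95 and Cxcl14 was -1.05 on D replicate 3 (normalized log2 signal), the 1 array of D that read them, so the other values of those sets have no order. D replicate 3 is the array with 89.9% of its probes well above background. The part of that in the levels of Cxcl1 and Cxcl14 was not tested.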

How the results depend on the processing

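No called difference reversed its direction under any alternative run, while Cxcl16 in J365 against M0, which was not called, changed sign under 3 of them. Of the differences under the alternatives, 406 stayed within 1 SD (members) or kept their call (other genes). Another 12 of members moved by more than 1 SD, 9 of them with normexp, and 9 of other genes lost their call, all of them Adam10 in DB#2 against M. Of the counts of calls under the alternatives, 168 stayed within 1.5 times the value reported and 8 did not. For members called, D against M gave 0 in a fit of the arrays of those lines alone, and 0 to 1 when each replicate was left out, with 0 without M replicate 2. DB#2 against M gave 2 with normexp background correction and 2 without scaling (Cx3cl1 and Cxcl10), and 2 in a fit of the arrays of those lines alone (Cx3cl1 and Cxcl1). For other ligands and receptors, DB#3 against M gave 0 to 1 when each replicate was left out, with 1 (Ccr2) without DB#3 replicate 4. Ccr2 was tested there only because the DB#3 array that did not read it was left out. J365 against M0 gave 5 with quantile normalization (Ccl4, Ccl6, Ccl24, Pf4 and Cxcr4) and 4 with normexp (Ccl4, Ccl24, Pf4 and Cxcr4). Of these, Ccl4 and Ccl24 could be tested only because all arrays of 1 of the lines read them. The cause of these changes was not tested. Without scaling the median of all genes moved to 0.25 in DB#2 against M, to 0.17 in D against M and to 0.17 in J365 against M0, so that 1122 of all genes were called higher and 133 lower in DB#2 against M (451 and 269 with scaling). Signal near the limit of reading limits Cx3cl1 in DB#2, Ccl3 in M0 and Cxcl1 in all lines to bounds.

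With replicate number as a block, which left out the 2 arrays without a number in the title, the members called remained 1 in D, 1 in DB#1, 1 in DB#2 and 0 in DB#3 against M and 1 in J365 against M0, and Cx3cl1 differed by 1.40 in D and -3.14 in DB#2. No call of a member changed. Outside DB#1 against M the numbers were not shown to pair the arrays. The block moved Cxcl10 in DB#3 against M from 0.56 to 0.14.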
